A study of Mus musculus with 3 samples.

Results

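The genes described here carry lipid into cells, make and export cholesterol, and build, store or oxidise fatty acids. They were chosen by name, with earlier results of these data known, as a list of 57 protein-coding genes. All 57 had a row among the 39304 rows of the table. They were divided by role into uptake and binding (11 genes), cholesterol synthesis and efflux (20 genes), fatty acid synthesis (15 genes, with activation and storage) and beta oxidation (11 genes, with release from stored fat). The material was cDNA of glomerular cells, from the capillary tufts in which the kidney filters blood, of male wild-type C57BL/6 mice 8 weeks old. How many animals were used is not stated in the labels. Cells were isolated and lysed on a Fluidigm C1, an instrument that captures cells in separate chambers, and qPCR for cell markers told which type each held. A pool was made of the cDNA of 15 mesangial cells, which sit between the capillary loops and contract, with that of 15 endothelial cells, which line the loops. It was split into 3 aliquots, and a library was made from each. There was 1 group and no contrast between conditions, and the spread between aliquots measures library construction and sequencing only.

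Endothelial cells meet blood lipid before any other cell of the kidney. Lipase bound to the capillary wall frees fatty acids from lipoproteins, scavenger receptors and small binding proteins carry them inward, and cells then esterify them, store them in droplets or burn them in mitochondria. Cholesterol arrives in lipoproteins or is made from acetyl-CoA, and sterol-sensing proteins of the endoplasmic reticulum set the rate by holding back or releasing the SREBP transcription factors. Surplus sterol leaves through ABC transporters.

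Values are FPKM, the reads of a gene per kilobase of its length and per 1000000 reads of the library, and an SD after ± describes the spread between the aliquots (n = 3). Reads per library numbered 9141422, 10427635 and 10976563 in aliquots 1, 2 and 3. They were recovered from low values, taken as 1 read over the mean length of a gene's annotated transcripts. All 7 mesangial and all 7 endothelial markers examined reached 1 FPKM in each of the aliquots, and their summed levels were 8601 to 9044 FPKM and 2529 to 2585 FPKM. The 5 podocyte markers were measured too, at a summed 272 to 288 FPKM, although the labels name no podocytes in the pool, and their part in the levels given here was not tested. The defining markers of other lipid-handling cells were at 0 in each aliquot for 7 of 7 adipocyte genes (Adipoq, Plin1 and Lep among them), 5 of 5 macrophage genes and 3 of 3 hepatocyte genes. Of 5 proximal tubule markers 4 were at 0 and Aqp1 reached 0.0694 FPKM in 1 aliquot. In this pool the cell type that made a transcript cannot be told, and fewer cells expressing a gene and less RNA per cell cannot be told apart.

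Most of the lipid genes were measured well above the limit of the libraries. A gene was called detected at 1 FPKM or more in every aliquot, which 39 of the 57 genes were (68.4%), against 36.4% of 21303 protein-coding rows and 21.7% of all rows. Another 7 genes had reads but stayed under that level, and 11 were listed at 0 in every aliquot (19.3%, against 54.6% of protein-coding rows). How far the choice of genes, made with earlier results known, shaped these shares was not tested. Detection reached 9 of 11 genes for uptake and binding, 11 of 20 for cholesterol, 10 of 15 for fatty acid synthesis and 9 of 11 for beta oxidation. The median level was 35.6 FPKM for uptake and binding, 2.86 FPKM for cholesterol, 5.74 FPKM for fatty acid synthesis and 32.2 FPKM for beta oxidation. Over protein-coding rows it was 0, over those with reads 12.9 FPKM and over the detected ones 21.0 FPKM. The cholesterol and fatty acid medians, which count genes at 0, lay below that of protein-coding rows with reads. For the 39 detected lipid genes the median was 41.1 FPKM. Together the 57 genes took 0.353% of all reads, and 8 of them stood at 100 FPKM or more. So did 1133 of the 21303 protein-coding rows, of which 7761 were detected.

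**Figure D1:**
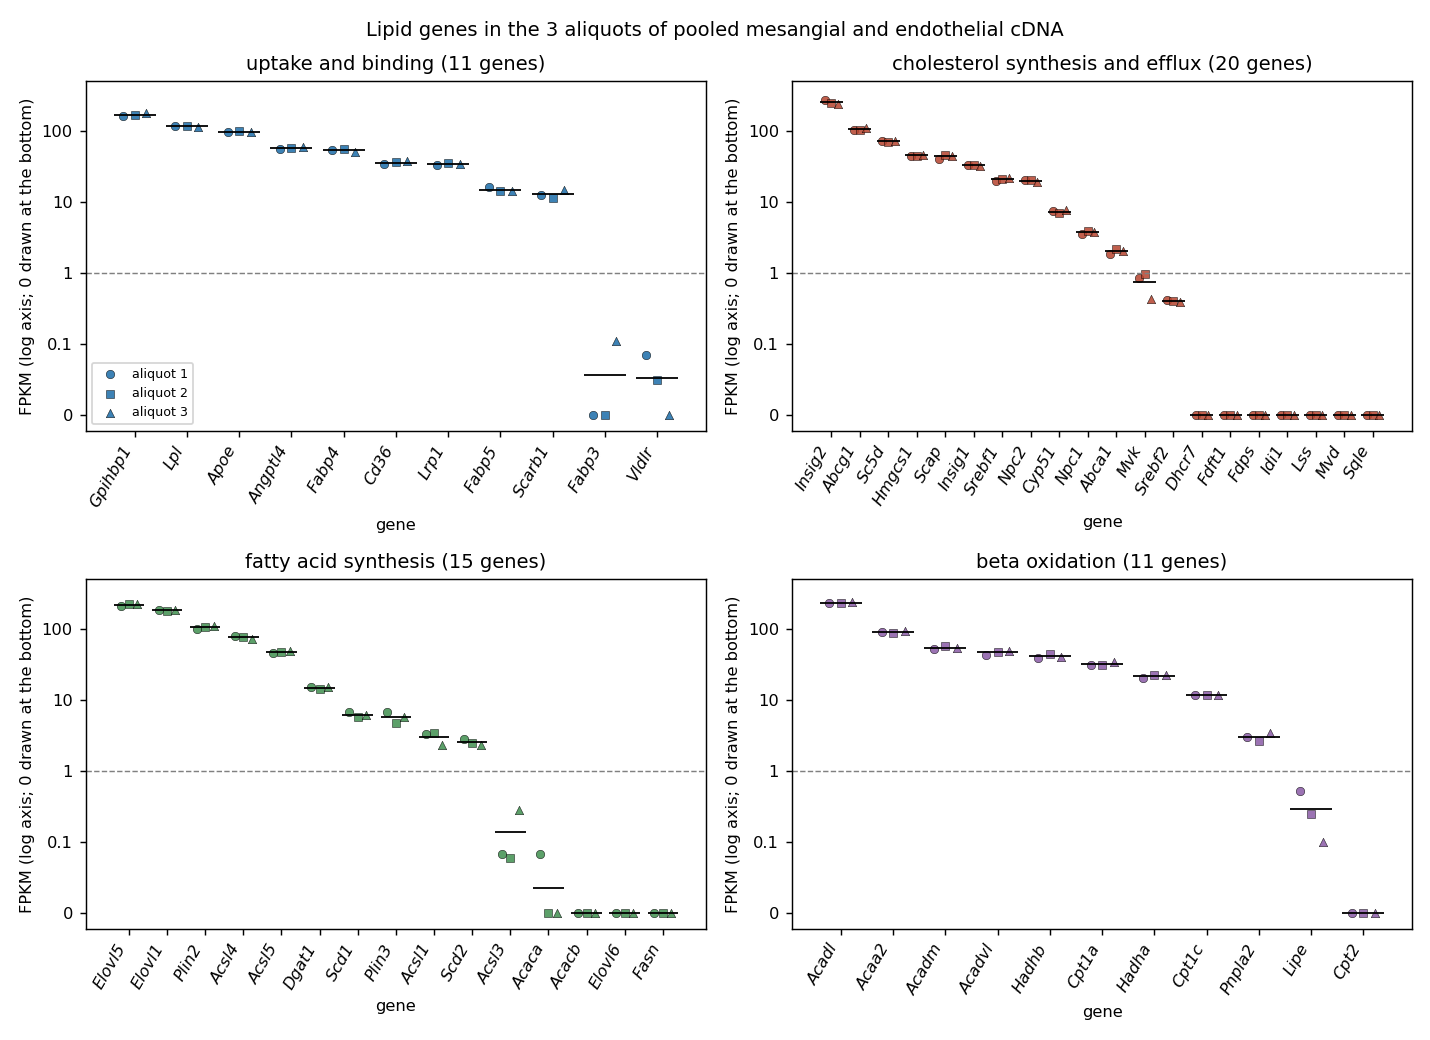
FPKM (log axis) of each lipid gene in aliquots 1, 2 and 3 (circle, square, triangle), with the mean as a black line, in 4 panels by role; the dashed line marks 1 FPKM and values of 0 are drawn at the bottom. The 39 detected genes have points that lie close together across the aliquots, and 11 genes sit at 0 in all 3, of which 7 belong to the cholesterol group.

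**Figure D2:**
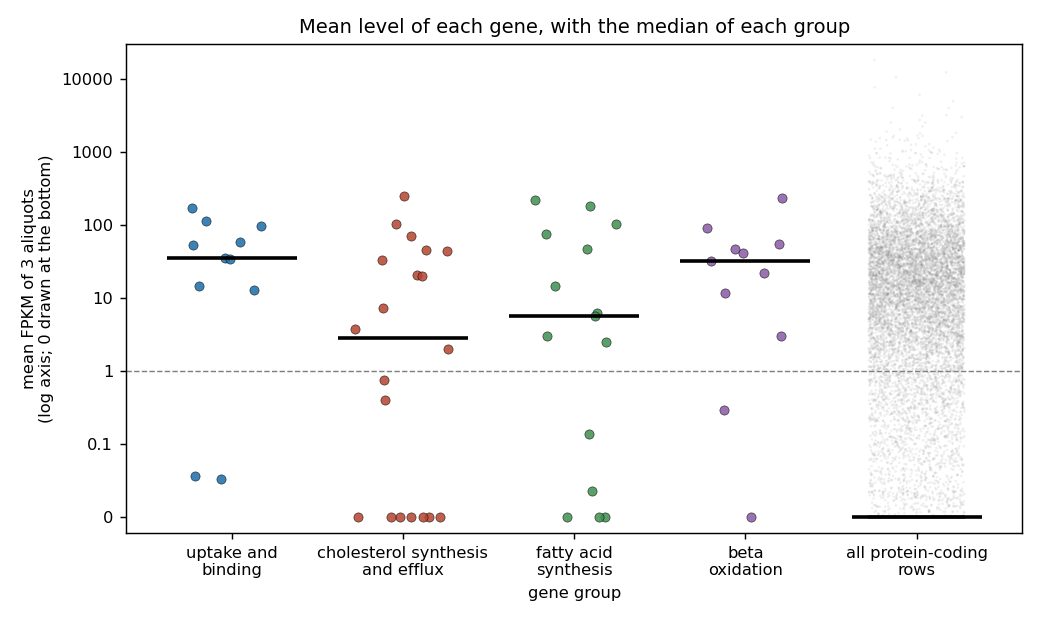
Mean FPKM over the 3 aliquots (log axis, 0 at the bottom) of each gene in the 4 role groups and of 21303 protein-coding rows; black bars are medians and the dashed line marks 1 FPKM. The medians of 35.6 FPKM for uptake and 32.2 FPKM for beta oxidation lie above those of 2.86 FPKM for cholesterol and 5.74 FPKM for fatty acid synthesis, and the median of all protein-coding rows is 0.

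Of the uptake genes, those of the lipase and its anchor at the capillary wall had the highest levels. Gpihbp1, the endothelial protein that carries lipoprotein lipase across the capillary wall and anchors it there, had 159, 167 and 178 FPKM in aliquots 1, 2 and 3. Lpl, the lipase itself, had 115, 115 and 114 FPKM. Every aliquot held more Gpihbp1 than Lpl, with a log2 ratio of 0.55 ± 0.09, or 1.46-fold on the FPKM scale. Per kilobase of the longest transcripts this log2 ratio was 0.32. Angptl4, a secreted inhibitor of the lipase, had 55.7, 56.9 and 59.8 FPKM. All 3 genes of this step were therefore detected, and their ranges over the aliquots did not overlap each other.

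Among the receptors, the fatty acid scavenger receptor and the large endocytic receptor were at nearly the same deposited level. Cd36, which takes up long-chain fatty acids and oxidised lipoproteins, had 33.5, 36.2 and 37.2 FPKM. Lrp1, which takes up Apoe-bearing remnants and many other ligands, had 32.6, 35.0 and 34.2 FPKM, a range that overlaps that of Cd36. Per kilobase of the longest transcript they stood apart, with 6.14 FPKM for Lrp1 and 36.6 FPKM for Cd36. Scarb1, the receptor for high-density lipoprotein, was lower at 12.3, 11.4 and 14.6 FPKM. Vldlr, a receptor for triglyceride-rich particles, stood apart at 0.0701, 0.0307 and 0 FPKM, which is 3 reads in all.

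The cytosolic binding proteins were unequal. Fabp4, the form known from fat cells and capillary endothelium, had 54.3, 55.7 and 49.8 FPKM, and Fabp5, a widely expressed relative, had 15.9, 14.3 and 14.2 FPKM. The 2 genes lie on chromosome 3 with 187480 bases between them, and their deposited levels did not overlap, with a log2 ratio of Fabp5 to Fabp4 of -1.85 ± 0.10. This order turned round with gene length: per kilobase of the longest annotated transcript the log2 ratio was 0.27, whereas scaling from the mean to the longest transcript, chosen after seeing the data, gave -1.74. Reads shared by such relatives could also have been split in ways that are not stated. Fabp3, the form of heart and muscle, had 1 read, in aliquot 3 (0, 0 and 0.111 FPKM). Apoe, the lipoprotein component that binds these receptors, was at 95.6, 98.9 and 96.4 FPKM, the third level of the uptake genes.

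Of 17 further uptake genes 6 were detected (35.3%) and 8 were listed at 0 (47.1%), with a median of 0.610 FPKM. Over protein-coding rows these shares were 36.4% and 54.6%. Dbi, the acyl-CoA binding protein, had 219.7 ± 6.85 FPKM and Cav1, the coat protein of caveolae, 204 ± 5.71 FPKM, both above every uptake gene of the main list. The next were Lrp6, a Wnt co-receptor of the low-density lipoprotein receptor family (47.1 ± 0.877 FPKM), and the scavenger receptor Stab1 (11.6 ± 0.825 FPKM). Listed at 0 were the tissue-restricted binding proteins Fabp1, Fabp2 and Fabp7, the endothelial lipase Lipg, the receptors Lrp8, Msr1 and Olr1, and the fatty acid transporter Slc27a6.

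Among the cholesterol genes, detection covered 4 of 5 control genes, 4 of 4 genes of efflux and transport, and 3 of 11 enzymes of synthesis (27.3%, against 36.4% of protein-coding rows). Listed at 0 were 7 of these 11 enzymes (63.6%, against 54.6% of protein-coding rows), shares near those of all genes. The upstream sequences of a pair of detected enzymes and of a pair near or at 0 are shown because these enzymes are known as a set under common control by SREBP, while their listed levels differ. The windows hold the 250 bases before the RefSeq start (GRCm38.p6) and no base of the annotated gene: Hmgcs1 at chr13:119690101-119690350, plus strand, Sc5d at chr9:42264301-42264550, minus strand, Mvk at chr5:114444019-114444268, plus strand, and Mvd at chr8:122443423-122443672, minus strand. Capitals mark the sterol regulatory element core TCACNCCAC and the CCAAT box, the letters that the factor NF-Y is known to bind, searched on both strands, where CCAAT reads ATTGG on the other. No match of either overlaps another.
Hmgcs1: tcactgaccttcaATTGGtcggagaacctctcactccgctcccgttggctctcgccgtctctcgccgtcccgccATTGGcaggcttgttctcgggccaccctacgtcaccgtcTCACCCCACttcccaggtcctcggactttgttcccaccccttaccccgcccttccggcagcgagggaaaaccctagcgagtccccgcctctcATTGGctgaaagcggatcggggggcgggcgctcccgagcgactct
Sc5d: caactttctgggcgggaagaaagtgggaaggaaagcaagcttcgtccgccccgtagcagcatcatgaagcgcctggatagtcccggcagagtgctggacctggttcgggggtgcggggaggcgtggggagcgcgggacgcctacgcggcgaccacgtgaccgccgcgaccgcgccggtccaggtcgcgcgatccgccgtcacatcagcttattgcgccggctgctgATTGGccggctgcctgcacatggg
Mvk: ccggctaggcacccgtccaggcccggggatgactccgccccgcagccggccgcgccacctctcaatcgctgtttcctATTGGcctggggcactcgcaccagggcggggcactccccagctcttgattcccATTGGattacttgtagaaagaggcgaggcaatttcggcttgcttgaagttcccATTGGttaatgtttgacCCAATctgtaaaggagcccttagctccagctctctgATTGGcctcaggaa
Mvd: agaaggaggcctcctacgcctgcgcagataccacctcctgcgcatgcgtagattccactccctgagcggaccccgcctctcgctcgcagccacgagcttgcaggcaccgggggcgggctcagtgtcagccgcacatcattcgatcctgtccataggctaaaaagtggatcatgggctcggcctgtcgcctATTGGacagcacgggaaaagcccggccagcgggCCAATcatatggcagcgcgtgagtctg

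In these windows the sterol core stands once, in Hmgcs1 at position -137 counted from the start, and the other 3 do not hold these letters. The CCAAT letters occur 3 times for Hmgcs1, 1 time for Sc5d, 5 times for Mvk and 2 times for Mvd. An annotated transcript start was matched near the RefSeq start for Hmgcs1, Mvk and Mvd. None was matched for Sc5d, so positions in its window are less certain. Windows were found for 42 of the 57 genes. TCACNCCAC was in 2 of their 55 windows (3.64%), those of Hmgcs1 and Acsl1, against 1.05% of all 32851 windows. CCAAT was in 27 of their 55 windows (49.1%), against 33.8% of all windows. Counted by gene, where any of several windows is enough and the share of all windows is no measure, CCAAT was found for 13 of 15 cholesterol genes. By listed level, CCAAT was in the windows of 7 of 9 detected cholesterol genes and 6 of 6 that were not detected. TCACNCCAC was found for 1 of the 15, Hmgcs1, which is 1 of 9 detected and 0 of 6 not detected. The other detected cholesterol genes with windows did not hold it. A share by gene over all genes was not computed, so these counts cannot be called high or low.

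Control of the pathway was led by Insig2, an endoplasmic reticulum protein that retains the SREBP escort when sterols are plentiful, with 267, 249 and 236 FPKM. The gene lies at chr1:121304353-121332589 (GRCm38, minus strand). Its level was the highest of all 57 genes, at rank 396 of 11142 genes above 0, though per kilobase of the longest transcript it had 73.5 FPKM and lay below Acadl (155 FPKM), Elovl1 (103 FPKM), Acaa2 (90.3 FPKM), Elovl5 (87.4 FPKM) and Gpihbp1 (80.9 FPKM). Its paralog Insig1, itself a known SREBP target, had 33.1, 33.4 and 32.3 FPKM, and the log2 ratio of Insig2 to Insig1 was 2.93 ± 0.07, or 1.78 when scaled from the mean to the longest transcript. Scap, the escort that carries SREBP to the Golgi, had 40.3, 46.0 and 44.3 FPKM.
The SREBP genes were far apart in the listed values. Srebf1, known for driving fatty acid genes, had 19.6, 20.7 and 21.8 FPKM, whereas Srebf2, known for driving cholesterol genes, had 0.417, 0.404 and 0.383 FPKM on 19, 21 and 21 reads. The log2 ratio of Srebf2 to Srebf1 was -5.69 ± 0.14, and -4.16 per kilobase of the longest transcripts.

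Sterol export was likewise unequal between paralogs. Abcg1, which loads cholesterol onto high-density lipoprotein, had 103, 102 and 108 FPKM, while Abca1, which loads it onto lipid-poor apolipoprotein, had 1.84, 2.15 and 2.01 FPKM. Their log2 ratio, Abca1 to Abcg1, was -5.71 ± 0.12. It was -5.29 per kilobase of the longest transcripts and -5.04 when scaled from the mean to the longest transcript. Both proteins that move cholesterol out of lysosomes were detected, the soluble Npc2 with 20.5, 20.1 and 18.8 FPKM and the membrane protein Npc1 with 3.48, 3.93 and 3.76 FPKM. Npc2 exceeded Npc1 by a log2 ratio of 2.41 ± 0.13, or 3.21 per kilobase of the longest transcripts.

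Of the 11 synthesis enzymes on the list, Sc5d, a late sterol desaturase, had 70.8, 69.9 and 71.4 FPKM. Hmgcs1, which forms HMG-CoA at the start of the pathway, had 44.7, 44.7 and 45.2 FPKM, the smallest relative spread of the 40 lipid genes with at least 30 reads (coefficient of variation 0.63%). Cyp51, the lanosterol demethylase, had 7.37, 6.88 and 7.60 FPKM. Mvk, the mevalonate kinase, fell short of the limit at 0.847, 0.966 and 0.423 FPKM on 29 reads. Mvd, Idi1 and Fdps, which lead from mevalonate to farnesyl diphosphate, and Fdft1, Sqle and Lss, which turn it into lanosterol, were listed at 0 in every aliquot, as was Dhcr7, which makes the last reduction. Many cell types use these enzymes, so each is reported as listed at 0 and not as absent. For the 11 listed genes at 0, 3 reads over the aliquots together would have given 0.0195 to 0.101 FPKM at their mean transcript length, for counting error only. Exon bases shared with another annotated gene were present in 5 of these 11 genes (45.5%), against 23% of protein-coding rows at 0, and in 12 of the 39 detected ones (30.8%), against 37.1% of detected protein-coding rows. The part of such overlap in the zeros was not tested.

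With 9 further enzymes of the pathway added, 8 of 20 were detected, 9 were listed at 0 and 3 lay between, which is near the 36.4% detected and 54.6% at 0 of protein-coding rows. Lbr, both a sterol reductase and a protein of the nuclear envelope, had 163 ± 4.64 FPKM. Of all 17 further cholesterol genes 11 were detected (64.7%, against 36.4% of protein-coding rows), with a median of 24.3 FPKM. The highest after Lbr were Mylip, a ubiquitin ligase for lipoprotein receptors (129 ± 2.08 FPKM), Ggps1, of the branch to protein prenylation (69.2 ± 0.451 FPKM), and the sterol isomerase Ebp (55.2 ± 2.65 FPKM). Tm7sf2, the reductase that shares its step with Lbr, was listed at 0, with Hsd17b7 and the sterol-binding Osbp.

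**Figure D3:**
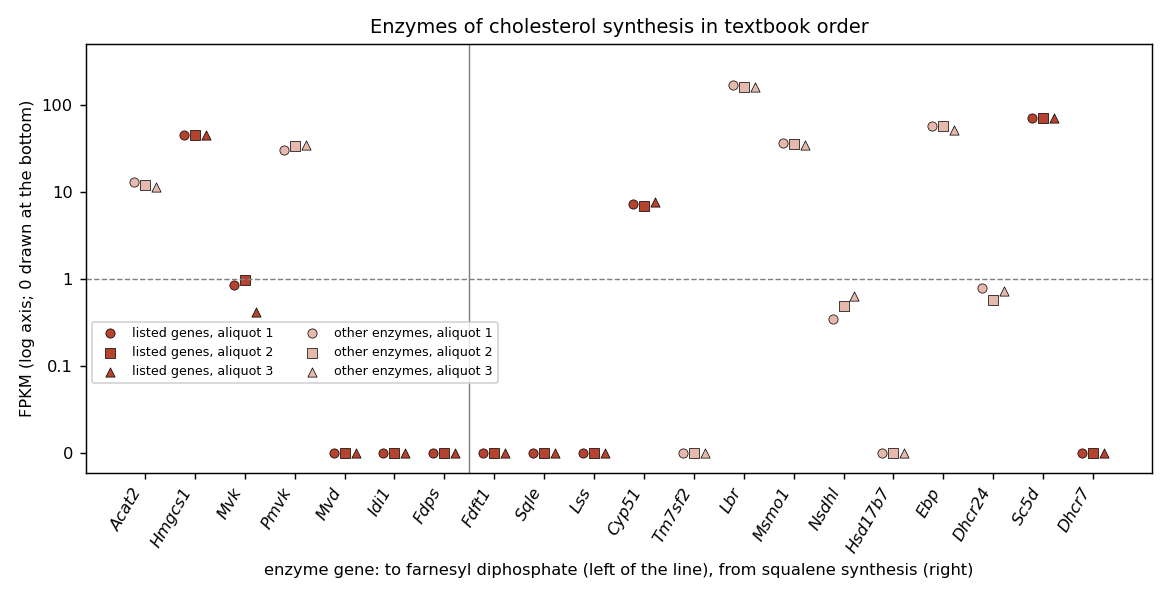
FPKM (log axis, 0 at the bottom) in aliquots 1, 2 and 3 of 20 enzymes of cholesterol synthesis in textbook order, up to farnesyl diphosphate on the left of the vertical line and from squalene synthesis on its right; dark points are genes of the list of 57 and pale points other enzymes, and the dashed line marks 1 FPKM. Of the 20 enzymes 8 lie above the dashed line in every aliquot, Hmgcs1, Cyp51, Lbr and Sc5d among them, and 9 lie at 0.

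Fatty acid synthesis showed 2 abundant elongases of 3 listed, beside core enzymes with hardly a read. Elovl5, which lengthens polyunsaturated fatty acids, had 212, 220.2 and 223 FPKM, and Elovl1, which lengthens very long saturated ones, 183, 179 and 183 FPKM. Elovl6, which lengthens palmitate, was listed at 0, and no Elovl gene among the further genes was detected. Acaca, the carboxylase that commits acetyl-CoA to fatty acids, had 1 read, in aliquot 1 (0.0685 FPKM), and both its mitochondrial relative Acacb and the fatty acid synthase Fasn were listed at 0. The carboxylase and synthase step was therefore not detected for any of its 3 genes. The desaturases were low, with 6.67, 5.71 and 6.08 FPKM for Scd1 and 2.81, 2.48 and 2.31 FPKM for Scd2. These close paralogs lie on chromosome 19 with 87590 bases between them. How reads shared by such copies were counted is not given in the sources used here, so their split is uncertain.

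Acyl-CoA synthetases, which activate fatty acids for every later use, were led by Acsl4, the form that prefers arachidonate, with 79.4, 75.6 and 72.4 FPKM. Acsl5 had 45.6, 47.9 and 48.8 FPKM. Acsl1, the main form of fat and heart, had 3.27, 3.41 and 2.34 FPKM, and Acsl3 had 7 reads in all and 0.0685, 0.0600 and 0.285 FPKM. Acsl4 and Acsl5 were thus separate from Acsl1 in every aliquot, and Acsl3 lay below all of them. Of the storage genes, the lipid droplet coat protein Plin2 had 98.3, 106 and 109 FPKM and its relative Plin3 6.74, 4.71 and 5.78 FPKM, a log2 ratio of Plin3 to Plin2 of -4.20 ± 0.31. Dgat1, which makes triglyceride, had 15.0, 14.1 and 15.3 FPKM.

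Among 18 further genes of fatty acid synthesis and storage 8 were detected and 8 were listed at 0 (44.4% each), with a median of 0.513 FPKM. Of protein-coding rows 36.4% were detected and 54.6% were listed at 0. Tecr, the reductase of the elongation cycle, had 69.3 ± 1.85 FPKM, the lipogenic factor Thrsp 37.4 ± 1.36 FPKM, the citrate lyase Acly 22.7 ± 0.117 FPKM and Hsd17b12, another enzyme of elongation, 15.8 ± 1.06 FPKM. Listed at 0 were the elongases Elovl2 and Elovl7, the desaturase Fads2, the mitochondrial synthesis enzymes Mcat and Oxsm, the glyceride enzymes Dgat2 and Gpam, and the droplet protein Plin4.

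Of the listed beta oxidation genes, the dehydrogenases, the trifunctional protein and the thiolase were all detected. The carnitine shuttle and fat release were detected in part. Acadl, the long-chain dehydrogenase, had 233, 229 and 235 FPKM, second among the 57 genes. Acadm, its medium-chain relative, had 52.6, 57.5 and 53.3 FPKM, and Acadvl, the very long-chain form on the inner membrane, 43.4, 47.2 and 48.8 FPKM. Acadl exceeded Acadm in every aliquot, with a log2 ratio of 2.09 ± 0.09, or 2.75 per kilobase of the longest transcripts and 2.88 when scaled from the mean to the longest. Exon bases shared with another gene made up 42.9% of Acadvl, more than for any other gene of the list, so part of its reads may have been assigned elsewhere or to it.

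Hadha and Hadhb, the subunits of the trifunctional protein, lie head to head on chromosome 5 with 85 bases between them. Hadhb had 39.4, 43.8 and 40.0 FPKM and Hadha 20.2, 22.7 and 22.3 FPKM. Hadhb was the higher in each aliquot, with a log2 ratio of 0.92 ± 0.07, or 0.50 per kilobase of the longest transcripts. Acaa2, the thiolase that closes the cycle, had 90.0, 87.3 and 93.7 FPKM. In the carnitine shuttle, which brings fatty acids into mitochondria, Cpt1a, the widespread form of the first enzyme, had 31.3, 31.5 and 33.7 FPKM and Cpt1c, a form known from neurons, 11.6, 11.8 and 11.9 FPKM. The log2 ratio of Cpt1c to Cpt1a was -1.45 ± 0.05, or -0.69 when scaled from the mean to the longest transcript. Cpt2, the next enzyme of the shuttle, was listed at 0 in every aliquot. Release from stored fat was low, with 2.97, 2.66 and 3.47 FPKM for the lipase Pnpla2 and 0.525, 0.248 and 0.101 FPKM, from 23 reads, for Lipe.

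Of 18 further genes of oxidation and lipolysis 12 were detected (66.7%, against 36.4% of protein-coding rows), with a median of 19.4 FPKM. The electron acceptors of the dehydrogenases were abundant, Etfb at 289.7 ± 14.6 FPKM and Etfa at 101 ± 5.35 FPKM. Eci2, an isomerase for unsaturated fatty acids, had 140.5 ± 2.59 FPKM and the peroxisomal thiolase Acaa1a 56.6 ± 1.08 FPKM. Acads, the short-chain dehydrogenase, was listed at 0, as were Slc25a20, the carnitine carrier, Cpt1b, the muscle form of the first shuttle enzyme, and the nuclear receptors Ppara and Ppard, which regulate such genes.

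Set in order of level, 46 of the 57 genes had reads, and 24 of the 45 neighbouring pairs had overlapping ranges. The first 6, Insig2, Acadl, Elovl5, Elovl1, Gpihbp1 and Lpl, were each separate from the next. Abcg1, Plin2 and Apoe followed, and in this stretch each gene's range overlapped that of the next. The same held along Angptl4, Acadm and Fabp4, along Acsl5, Acadvl, Hmgcs1, Scap and Hadhb, and along Cd36, Lrp1, Insig1 and Cpt1a. Among the 39 detected genes 19 of 38 neighbouring pairs overlapped.

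The aliquots differed little in these genes. Of the 57 genes 40 had at least 30 recovered reads, and their median coefficient of variation was 4.98%, against 5.03% for all 9120 genes with that many. A chi-square test of the reads of each gene against the library totals, with Benjamini-Hochberg adjustment over all genes tested, called 0 of the 40, against 1.09% of all genes. At an unadjusted p under 0.05 there were 5 of the 40 (12.5%), against 11.4% of all genes. Recovered reads are minimum numbers. The chi-square is therefore too small for any gene with a missed common factor, among the 40 and among all genes. The gene nearest to the threshold was Insig2, highest in aliquot 1 (adjusted chi-square p = 0.054). It was called when only genes of at least 100 reads were tested, and Insig2 and Acsl4 were called without aliquot 2 and when median ratios replaced the library totals. The highest value was in aliquot 1 for 8 of the 40 genes (20%), against 32.7% of all genes, in aliquot 2 for 12 (30%), against 32.4%, and in aliquot 3 for 20 (50%), against 35.0%. Read numbers ranged from 132 to 9524 for the detected genes, and those that had reads but were not detected had at most 61.

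**Figure D4:**
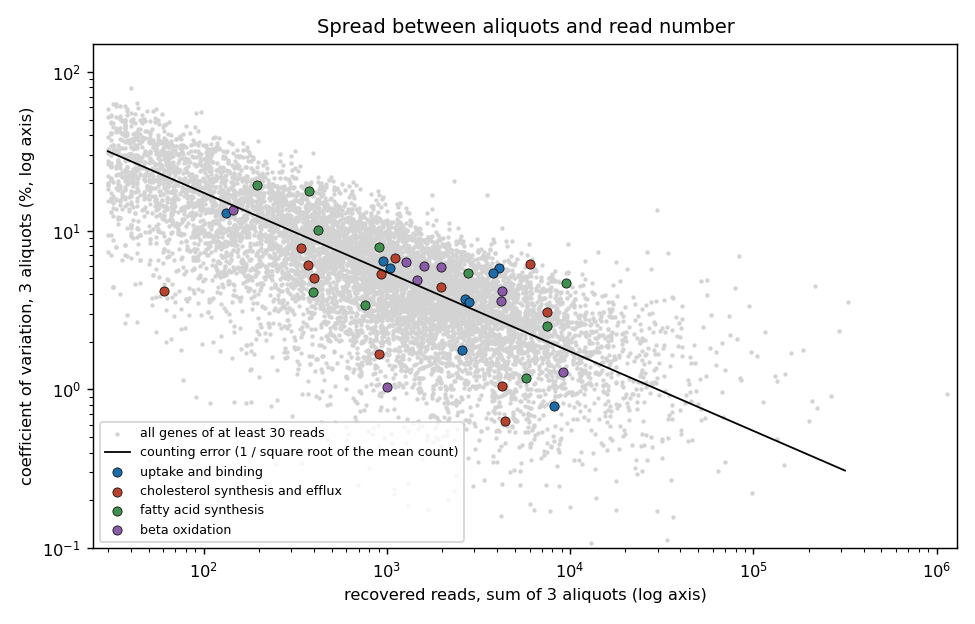
Coefficient of variation over the 3 aliquots (%, log axis) against the recovered reads of each gene (sum of the aliquots, log axis) for all 9120 genes of at least 30 reads in grey and 40 lipid genes in colour by role; the line is the counting error of a mean count. The lipid genes lie within the grey cloud, with Insig2 (6.13%, 6032 reads) and Acsl4 (4.67%, 9524 reads) among the points above the line at high read number.

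Levels of different genes rest on the gene length used by the authors, which is not stated. The values imply for each gene a smallest whole length in bases, which is too short where a common factor of the reads was missed. A multiple of it was taken where that came within 1 base of the mean annotated transcript length. For 13 of the 46 genes with reads the length taken was within 1 base of that mean. The longest annotated transcript was a median 2.01 times as long as the implied length for these 46 genes. The ratio reached 9.18 for Scarb1 (337 bases implied, 3093 in the longest transcript), and Fabp4 (637 and 4231 bases), Lrp1 (2697 and 14888 bases) and Acsl5 (525 and 4243 bases) also had long transcripts for their implied length. Per kilobase of the longest transcript, Scarb1 had 1.39 FPKM in place of 12.8 FPKM and Fabp4 8.02 FPKM in place of 53.2 FPKM, while Cd36 had 36.6 and 35.6 FPKM. Only Acadl (155 FPKM) and Elovl1 (103 FPKM) then reached 100 FPKM, and Insig2 had 73.5 FPKM. Rows other than the lipid genes were not rescaled. Scaled from the mean to the longest transcript, which does not use the implied length, Scarb1 had 5.99 FPKM and Fabp4 32.3 FPKM.

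**Figure D5:**
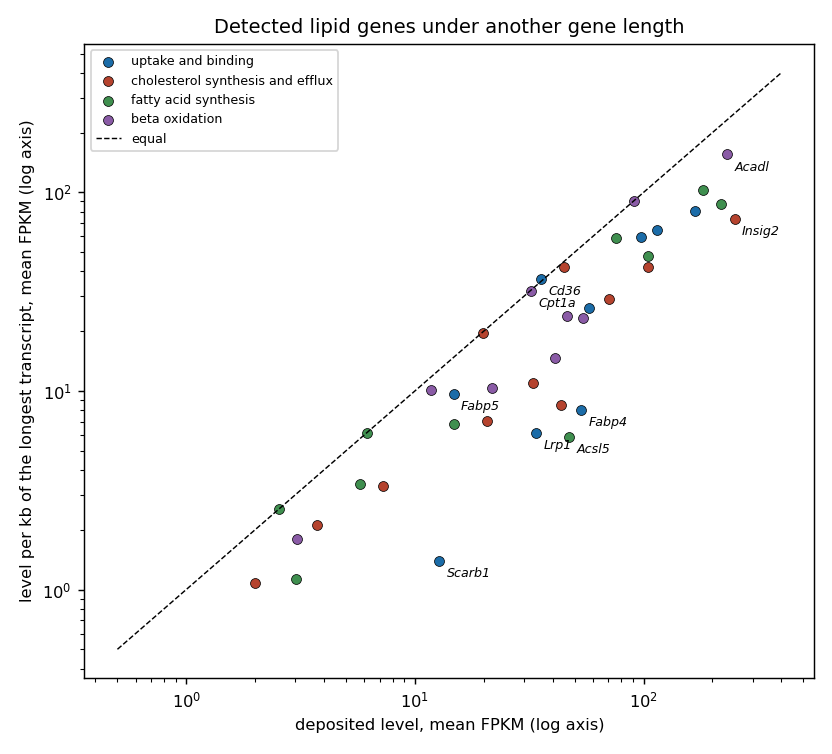
Mean level of the 39 detected lipid genes per kilobase of their longest annotated transcript (vertical, log axis) against the deposited mean FPKM (horizontal, log axis), coloured by role, with the line of equal values. Scarb1, Fabp4, Lrp1 and Acsl5 lie far below the line, and Cd36 and Cpt1a lie on it.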

How the data were processed

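The 3 columns of the table were mapped to the aliquots by their titles. The table deposited by the authors holds FPKM, and no scaling beyond length and library size was seen in the values. Per the submitters' processing notes, TopHat2 2.0.12, HTSeq 0.6.1 and GRCm38 were used; their settings, the strand rule and the annotation with its lengths were not given in the sources used here. Gene symbols were looked up by Ensembl identifier. Transcript lengths and exon overlaps came from GENCODE M21 (GRCm38), possibly another release than the one the authors used.

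Each library total was set from genes under 0.5 FPKM. It was the commonest whole total if each held 1 read over its mean annotated transcript length. In aliquots 1, 2 and 3, 208 of 1276, 221 of 1304 and 214 of 1347 such genes gave it. Whole reads were sought within 0.0001 reads at the smallest whole gene length. For 374 genes a multiple of that length was used, as it came within 1 base of the mean annotated transcript length. All 11142 genes above 0 gave whole reads, but a common factor may be missing, so reads are minimum numbers. Recovery and the chi-square test were checked on simulated data. Reads of amplified cDNA are not independent molecules, so floors and the test cover counting error only. The aliquots come from 1 pool and are technical repeats. Because the unit is FPKM and there is 1 group, no count model was fitted. Upstream windows are from RefSeq.

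The genes, their groups, 17 gene pairs and the list of 70 further genes were chosen with earlier results of these data known. Pairs with a gene at 0 in some aliquot have no ratio. Of the further genes the 4 highest detected of each group and those at 0 are named; 2 genes first on that list are not reported here. Alternatives were other detection limits, pseudocounts, gene lengths, read minimums, library scaling and leaving out each aliquot. Python packages were numpy 2.4.6, scipy 1.17.1, pandas 2.3.3 and matplotlib 3.10.9.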

Additional observations from a re-analysis of the deposited data

How the results depend on the processing

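Per kilobase of the longest annotated transcript, 2 genes in place of 8 reached 100 FPKM, also when scaled from the mean to the longest transcript, an alternative added after seeing the data. The group medians for uptake, cholesterol, fatty acid synthesis and beta oxidation were then 9.65, 1.60, 3.40 and 14.6 FPKM, or 26.3, 1.43, 2.51 and 11.03 FPKM by the added scaling. A longer length lowers nearly every level, here 43 of 46 genes, and 45 of 46 by the added scaling. The other rows and the limit of 100 FPKM were not rescaled, so these falls do not place the lipid genes against other genes. The log2 ratio of Fabp5 to Fabp4 turned from -1.85 to 0.27 by the longest transcript, and it kept its sign by the added scaling. With log2(FPKM + 1) the ratio of Srebf2 to Srebf1 was -3.95, against -5.69. With detected genes only, the medians were 53.2, 32.9, 31.1 and 41.1 FPKM. The mean of log2(FPKM + 1) in place of the median gave 23.4, 5.48, 7.98 and 18.0 FPKM, and a pseudocount of 0.1 gave 16.4, 2.44, 4.06 and 13.2 FPKM. With activation, storage and release as a group of their own, the medians were 1.28 FPKM for fatty acid synthesis and 41.1 FPKM for beta oxidation.

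Leaving out each aliquot in turn, the chi-square test called 2 to 98 genes in all, against 99 of 9120 with all 3, and 0 to 2 lipid genes, against 0; the lowest number of genes, 2, came without aliquot 1, and 65 were called without aliquot 3. It called 1 lipid gene among genes of at least 100 reads and 2 with median ratios. The number of detected lipid genes stayed at 39 whichever aliquot was left out. Leaving out 1 aliquot moved the level by over 1.5 times for 5 genes of few reads: without aliquot 1 Vldlr had 0.0154 FPKM, Lipe 0.174 FPKM and Acaca 0, and without aliquot 3 Acsl3 had 0.0643 FPKM and Fabp3 0. No paired analysis was possible because there is only 1 group. Depth limits the genes of few reads: with 3 reads or fewer in all, Vldlr, Fabp3 and Acaca cannot be ordered.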
